A study of Mus musculus with 18 samples.

Results

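The genes examined were 10 transcription factors and cofactors of the program through which RANKL turns a macrophage into a bone-resorbing osteoclast. They were Nfatc1, Nfatc2 and Nfatc3 of the NFAT family, Mitf, Tfec, Tfeb and Tfe3 of the MiT/TFE family, Prdm1 (which encodes Blimp1), Ppargc1b (PGC-1β) and Rcan1 (regulator of calcineurin). Positions are those of the deposited table (GRCm38). The members were chosen by name from 34745 genes in the table, with earlier results of these data known. All 10 passed the filter on low counts that left 14241 genes for testing. Bone marrow-derived macrophages (BMDMs) came from wild-type Zmat1+/+ mice (WT) or from littermates with a global Zmat1 deletion (KO). They received the growth factor M-CSF alone (day 0) or M-CSF with RANKL for 1 or 3 days, so M-CSF was shared by all 6 groups of label and day. No group stayed in M-CSF alone for 1 or 3 days, so RANKL and time in culture cannot be told apart. Each group held 3 RNA sequencing libraries, and total counts ran from 13789775 to 17559958 per library. The labels do not state whether libraries came from separate mice, so p-values measure the spread between these libraries, which may be technical.

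Counts of Zmat1 itself did not separate the labels. They ranged from 32 to 91 in the libraries labelled WT and from 49 to 99 in those labelled KO, and groups are therefore called by their labels throughout. Library titles came in 2 styles. A double hyphen stood in 5 of them, namely library 1 of WT day 0, library 2 of KO day 0, libraries 1 and 2 of KO day 1, and 1 of the pair numbered 1 in WT day 1. Erythroid markers (6) summed to between 0.0769 and 1.00 CPM in these 5 and to between 15.6 and 24.5 CPM in the others, where CPM are counts scaled by library size. When title style was added to the fit, a test first thought of once the data were in view, 23.2% of all genes tested passed an adjusted p of 0.05 (edgeR quasi-likelihood test). Of the members, Tfeb (log2 difference 0.79, adjusted p = 0.00327), Mitf (0.35, adjusted p = 0.0106) and Tfe3 (0.28, adjusted p = 0.0463) were higher and Nfatc2 (-0.45, adjusted p = 0.0329) was lower in the double-hyphen libraries in that edgeR fit. What the styles stand for is not stated, and no day 3 library has a double hyphen. Macrophage markers (7 of 8 matched to 1 row) were present in every library, with a summed level of 8706 to 13247 CPM on day 0 and 2900.2 to 4077 CPM on day 3. Neutrophil markers (8) went from between 664 and 3026 CPM to between 36.0 and 66.8 CPM under the WT label and from between 3669 and 11802 CPM to between 98.6 and 1146 CPM under the KO label. The part of these shifts in the falls of members and listed genes was not tested. Osteoclast markers (7 of 7) summed to 42.8 to 472 CPM on day 0 and to 4936 to 11702 CPM on day 3.

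NFAT proteins wait in the cytoplasm in a phosphorylated form until calcium activates the phosphatase calcineurin, which removes the phosphates and lets them enter the nucleus. In osteoclast precursors NFATc1 is known to amplify its own transcription downstream of RANKL and to switch on genes for bone resorption and cell fusion, and RCAN1, itself an NFAT target, restrains calcineurin. The MiT/TFE proteins bind DNA as dimers with one another. MITF cooperates with NFATc1 and the transcription factor PU.1 at osteoclast genes, while TFEB and TFE3 are best known for control of lysosomal and autophagy genes. Blimp1 is a repressor that silences inhibitors of osteoclast formation such as Irf8 and Bcl6, and PGC-1β drives mitochondrial biogenesis in osteoclasts.

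Promoter sequence was examined for 8 of the 10 members from RefSeq (GRCm38.p6), as 16 windows of 250 bases before an annotated start. Nfatc1 and Ppargc1b were left out of these windows, and whether their promoters hold the motifs below was not tested. Rcan1 has a pair of annotated starts, and the downstream one is known as a calcineurin-responsive promoter. Both are shown because Rcan1 rose on day 3, with the NFAT core GGAAA in capitals, and the gene counts do not tell the starts apart. On the other strand that core reads TTTCC. The windows lie at chr16:92466170-92466419 (start 1) and chr16:92400079-92400328 (start 2) on the minus strand.
Rcan1 start 1: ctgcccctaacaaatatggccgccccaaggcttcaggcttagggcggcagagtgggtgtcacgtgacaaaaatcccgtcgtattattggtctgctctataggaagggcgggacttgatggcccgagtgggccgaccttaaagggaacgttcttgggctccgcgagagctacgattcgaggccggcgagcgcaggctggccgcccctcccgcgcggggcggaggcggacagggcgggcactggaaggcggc
Rcan1 start 2: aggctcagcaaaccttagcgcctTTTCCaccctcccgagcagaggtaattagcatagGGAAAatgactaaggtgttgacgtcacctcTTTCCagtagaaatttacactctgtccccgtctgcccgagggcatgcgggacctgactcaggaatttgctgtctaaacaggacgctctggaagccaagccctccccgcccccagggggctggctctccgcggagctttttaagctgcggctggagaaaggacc
The upstream window held 0 NFAT cores and the downstream window 3, a number reached or exceeded in 6.39% of the 32851 windows searched. A single core occurred in many windows, since 55.6% of all windows held at least 1. The downstream window also held 1 match to the AP-1 motif TGANTCA, found in 6.75% of windows, and the upstream window held 1 E-box CACGTG (6.02% of windows), a motif that MiT/TFE proteins bind.

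The Prdm1 window (chr10:44458749-44458998, minus strand) is shown for another riser, and the upstream Nfatc2 window (chr2:168601658-168601907, minus strand) for a gene that fell.
Prdm1 start 1: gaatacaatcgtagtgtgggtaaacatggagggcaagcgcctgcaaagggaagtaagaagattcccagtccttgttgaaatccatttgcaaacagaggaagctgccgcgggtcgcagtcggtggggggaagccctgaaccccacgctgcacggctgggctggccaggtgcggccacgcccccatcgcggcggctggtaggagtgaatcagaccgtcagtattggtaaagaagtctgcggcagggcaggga
Nfatc2 start 1: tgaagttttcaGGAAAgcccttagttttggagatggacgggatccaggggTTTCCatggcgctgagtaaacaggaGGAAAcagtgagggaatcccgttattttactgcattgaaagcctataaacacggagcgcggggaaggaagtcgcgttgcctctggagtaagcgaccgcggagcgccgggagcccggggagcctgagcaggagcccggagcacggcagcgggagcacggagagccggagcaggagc
The Prdm1 window held 0 NFAT cores and 1 AP-1 match, and the Nfatc2 window held 3 NFAT cores and no AP-1 match. The same number of cores thus stood before a gene that rose (Rcan1 start 2) and one that fell. The M-box core CATGTG, searched on both strands and found in 12.25% of all windows, was in none of the 16 windows of the members. A match of letters is a description of the window and does not show binding.

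By day 3 of RANKL 7 of the 10 members had changed in the libraries labelled WT, and 7 in those labelled KO. Nfatc1, Rcan1, Prdm1 and Ppargc1b rose and Nfatc2, Tfeb and Tfe3 fell under both labels, while Nfatc3, Mitf and Tfec did not pass the test under either. Of all genes tested, 50.2% were called in the comparison of days 3 and 0 under the WT label and 42.5% under the KO label (edgeR quasi-likelihood test, Benjamini-Hochberg adjusted p under 0.05 over all genes), so a count of 7 of 10 is to be read against a very broad response. In each direction the background was 23.7% higher and 26.5% lower under the WT label, and 20.2% higher and 22.3% lower under the KO label. Scaling by total counts in place of the trimmed mean of M values (TMM) shifted the median of all genes to 0.33 (WT) and 0.29 (KO) on the log2 scale and moved the split of called genes from 3370 higher and 3773 lower to 5153 and 2221 (WT), and from 2873 and 3173 to 4274 and 1963 (KO). The 4 rises and 3 falls of the members held their direction and their call under that scaling. The 7 changed genes had no overlap between their day 0 and day 3 libraries under the WT label, as 62.5% of all genes did, and under the KO label Mitf joined them to make 8 (58.8% of all genes).

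**Figure D1:**
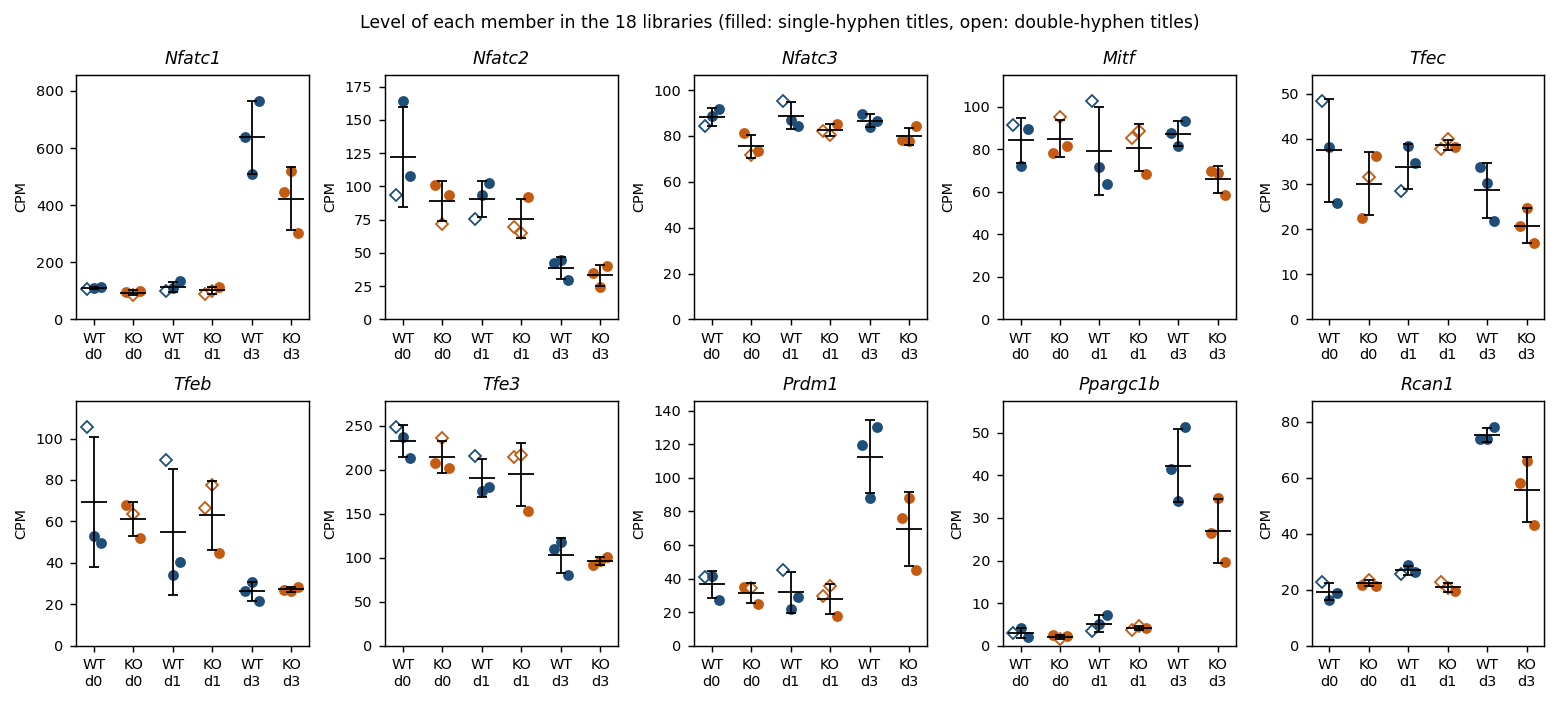
Level of each of the 10 genes in CPM (vertical axes, from 0) in the 18 libraries, by label and day. Points are libraries (open diamonds have double-hyphen titles), and black bars are the mean ± SD of 3. Nfatc1, Prdm1, Ppargc1b and Rcan1 stand above their day 0 libraries on day 3 under both labels.

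Nfatc1, the master regulator of osteoclast formation (chromosome 18), was at 107, 111 and 114 CPM in the 3 WT day 0 libraries and at 639, 509 and 766 CPM in the WT day 3 libraries. Under the KO label the values were 97.6, 84.1 and 100.5 CPM on day 0 and 447, 521 and 301 CPM on day 3. All day 3 libraries lay above all day 0 libraries, the lowest being KO day 3 library 3. The log2 fold change was 2.53 ± 0.20 (SE) under the WT label (5.77-fold, adjusted p = 2.16e-06) and 2.17 ± 0.20 under the KO label (4.50-fold, adjusted p = 1.12e-05, edgeR). The other NFAT genes among the members went other ways. Nfatc2, expressed in T cells and macrophages (chr2:168476410-168601657), was at 93.4, 164 and 108 CPM in WT day 0 and at 42.5, 44.5 and 29.5 CPM in WT day 3. Under the KO label it was at 101, 71.8 and 93.6 CPM on day 0 and at 35.0, 24.7 and 39.9 CPM on day 3, again with no overlap. It fell by 1.65 ± 0.25 (WT, adjusted p = 0.000123) and by 1.42 ± 0.25 (KO, adjusted p = 0.000572) on the log2 scale (edgeR). Nfatc3, the third family member (chr8:106059603-106130537), stayed between 71.8 and 95.3 CPM in all 18 libraries, with log2 fold changes of -0.02 ± 0.08 (WT) and 0.08 ± 0.08 (KO). It overlaps Esrp2 on the opposite strand, but Esrp2 had 208 counts over all libraries against 22732 for Nfatc3.

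Rcan1, the calcineurin inhibitor (chr16:92391953-92466146), was at 22.7, 16.5 and 18.9 CPM in WT day 0 and at 74.0, 74.0 and 78.2 CPM in WT day 3. In the libraries labelled KO it went from 21.8, 23.5 and 21.5 CPM to 58.0, 66.1 and 43.2 CPM. The WT day 3 libraries lay close together and above every KO day 3 library. The log2 fold change was 1.96 ± 0.15 under the WT label (3.90-fold, adjusted p = 1.496e-06) and 1.33 ± 0.15 under the KO label (2.51-fold, adjusted p = 3.07e-05, edgeR). A test of the difference between these log2 fold changes gave -0.64 ± 0.20 (unadjusted p = 0.00727, adjusted p = 0.91, edgeR), which did not pass. In that test 0 of the 14241 genes passed.

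The levels of Nfatc1, Nfatc2 and Nfatc3 were compared on the deposited FPKM scale. That scale divides by transcript length and allows levels of different genes to be set side by side. On day 0 Nfatc1 and Nfatc3 were nearly equal under the WT label, at 12.7 ± 1.07 and 13.4 ± 1.28 FPKM (SD, n = 3), and their libraries overlapped. By day 3 Nfatc1 reached 94.4 ± 21.2 FPKM under the WT label and 60.9 ± 17.8 FPKM under the KO label, the highest level of any member. Its share of the sum of Nfatc1, Nfatc2 and Nfatc3 went from 39.5% ± 2.33 to 82.5% ± 3.07 (WT) and from 40.4% ± 1.503 to 77.1% ± 6.26 (KO). Nfatc4 and Nfat5, NFAT genes outside the members, were not in that sum. Nfatc2 went from 18.9% to 2.31% of the sum under the WT label and from 16.7% to 2.85% under the KO label. No day 3 library overlapped a day 0 library in the Nfatc1 share, whose lowest day 3 value was 70.1%. Over the same time the sum of Nfatc1, Nfatc2 and Nfatc3 went from a mean of 32.3 to 114 FPKM (WT) and from 27.4 to 78.1 FPKM (KO), with no test.

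The order of all 10 genes by FPKM also differed between the days. On day 0 Nfatc3 and Nfatc1 stood first and Ppargc1b last, at 0.624 ± 0.242 FPKM (WT) and 0.450 ± 0.136 FPKM (KO). On day 3 Rcan1 was second under both labels, at 35.3 ± 1.95 and 25.5 ± 6.07 FPKM, apart from its neighbours in the order. Ppargc1b had moved to the fifth place under the WT label (11.4 ± 2.61 FPKM) and the sixth under the KO label (7.03 ± 2.13 FPKM), and its libraries overlapped those of Mitf under both. Nfatc2 was last, at 2.52 ± 0.478 and 2.09 ± 0.444 FPKM.

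**Figure D2:**
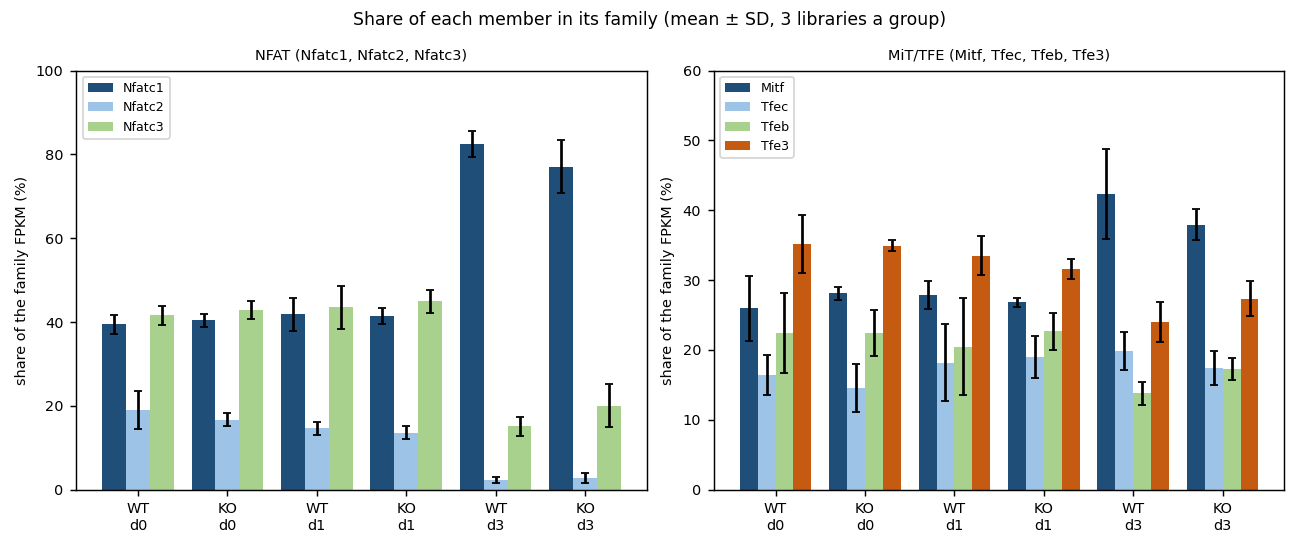
Share of each gene in a summed FPKM (vertical axes, %, from 0). The sum is that of Nfatc1, Nfatc2 and Nfatc3 (left) or of the MiT/TFE family (right). Bars are means of 3 libraries and error bars the SD. The Nfatc1 share is between 39.5% and 41.8% on days 0 and 1 and at 82.5% (WT) and 77.1% (KO) on day 3.

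In the MiT/TFE family no member was called higher. Mitf (chr6:97807052-98021349) was at 91.3, 72.1 and 89.5 CPM in WT day 0 and at 87.6, 81.4 and 93.0 CPM in WT day 3, overlapping ranges whose log2 fold change was 0.05 ± 0.17. Under the KO label it was at 78.2, 94.9 and 81.7 CPM on day 0 and at 69.9, 68.9 and 58.5 CPM on day 3. These did not overlap, but the log2 fold change of -0.37 ± 0.17 did not pass (adjusted p = 0.0865, edgeR). Under total-count scaling Mitf and Nfatc3 stood at 0.42 and 0.34 on the log2 scale in the WT comparison, with the median of all genes at 0.33, and their adjusted p-values were then 0.0133 and 0.0236.

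Tfe3 (chrX:7762560-7775202) fell by 1.18 ± 0.16 on the log2 scale under the WT label (adjusted p = 5.90e-05) and by 1.16 ± 0.16 under the KO label (adjusted p = 0.000121, edgeR). Its levels went from 213 to 248 CPM in the WT day 0 libraries to 79.9 to 118 CPM in WT day 3, and from 201 to 236 CPM to 91.2 to 101 CPM under the KO label. Tfeb (chr17:47737030-47792419) was at 105.5, 53.2 and 49.3 CPM in WT day 0, where the highest library has a double-hyphen title, and at 26.3, 30.9 and 21.4 CPM in WT day 3. Under the KO label it was at 68.0, 63.7 and 52.2 CPM on day 0 and at 27.0, 26.2 and 28.3 CPM on day 3. It fell by 1.40 ± 0.35 (WT, adjusted p = 0.00437) and by 1.18 ± 0.35 (KO, adjusted p = 0.0147, edgeR), and by 0.91 (adjusted p = 0.00215) and 1.09 (adjusted p = 0.00127) without the 5 double-hyphen libraries. Tfec (chr6:16833373-16898441), a macrophage-restricted family member, ran from 16.9 to 48.5 CPM over all libraries and was at -0.39 ± 0.24 (WT) and -0.54 ± 0.24 (KO, adjusted p = 0.0806, edgeR) on the log2 scale on day 3 against day 0. With the replicate number as a block the KO value was -0.53 and passed (adjusted p = 0.0411). The share of Mitf in the family FPKM stood at 26.0% ± 4.63 on day 0 and 42.3% ± 6.44 on day 3 under the WT label, and at 28.1% ± 0.934 and 38.0% ± 2.20 under the KO label. On that scale Mitf itself was at 6.63 to 8.36 FPKM on day 0 and 9.20 to 11.03 FPKM on day 3 under the WT label, without overlap, and at 7.45 to 8.03 and 6.26 to 8.08 FPKM under the KO label. The FPKM divide by mapped reads, not by the TMM library size. Nfatc3 did not overlap on that scale either, at 11.96 to 14.45 and 15.97 to 17.45 FPKM (WT) and 10.2 to 13.0 and 14.9 to 15.2 FPKM (KO). The share of all genes without overlap in FPKM was not computed. On day 0 Tfe3 had the largest mean share (35.2% and 34.9%), and on day 3 Mitf did.

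Prdm1, the gene of the repressor Blimp1 (chr10:44437177-44528501), was at 41.1, 41.6 and 27.0 CPM in WT day 0 and at 120, 88.3 and 130 CPM in WT day 3. The KO-labelled libraries went from 35.1, 34.6 and 24.8 CPM to 75.8, 87.8 and 45.1 CPM. All day 3 libraries lay above those of day 0 with the same label, KO day 3 library 3 by the smallest margin. Prdm1 rose by 1.63 ± 0.32 (WT, 3.09-fold, adjusted p = 0.000959) and 1.14 ± 0.32 (KO, 2.21-fold, adjusted p = 0.011, edgeR) on the log2 scale. Without KO day 3 library 2 the KO value was 0.94 and no longer passed (adjusted p = 0.0522). Ppargc1b, the coactivator of mitochondrial genes (chromosome 18), changed most of the 10. It was at 2.89, 4.18 and 1.93 CPM in WT day 0 and at 41.5, 34.0 and 51.3 CPM in WT day 3, and went from 2.57, 1.54 and 2.18 CPM to 26.4, 34.6 and 19.6 CPM under the KO label. The log2 fold change was 3.82 ± 0.34 (14.1-fold, adjusted p = 4.21e-06) and 3.67 ± 0.34 (12.7-fold, adjusted p = 1.20e-05, edgeR).

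**Figure D3:**
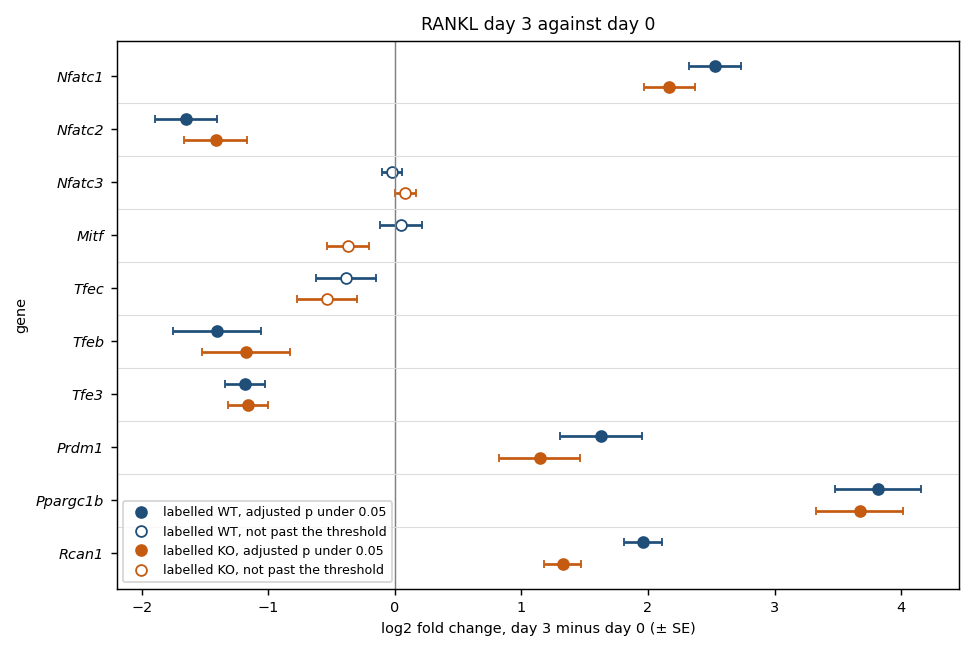
Log2 fold change of day 3 against day 0 (horizontal axis) for each gene under the WT label (blue) and the KO label (orange). Points are edgeR estimates, bars the SE, filled points have an adjusted p under 0.05. The same 4 genes lie to the right, from 1.14 (Prdm1, KO) to 3.82 (Ppargc1b, WT), and the same 3 to the left under both labels.

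None of the 10 was called after 1 day of RANKL under either label (edgeR). Of all genes tested, 2.35% were called on day 1 against day 0 under the WT label and 0.0211% under the KO label. At an unadjusted p under 0.05 there were 2 members under the WT label (Rcan1 and Ppargc1b), where 20.5% of all genes reached it, and 1 under the KO label (Ppargc1b), where 10.2% did. The DESeq2 Wald test called 1 member, Rcan1, under the WT label (adjusted p = 0.0475), where it called 8.57% of all genes, and 0 under the KO label (1.19% of all genes). Rcan1 was at 25.7, 28.8 and 26.2 CPM in WT day 1, above all 3 WT day 0 libraries (16.5% of all genes did not overlap), a log2 fold change of 0.48 ± 0.15 (adjusted p = 0.0877, edgeR). In KO day 1 it was at 22.7, 20.5 and 19.6 CPM, a log2 fold change of -0.09 ± 0.15. Ppargc1b was at 3.33, 5.05 and 7.17 CPM in WT day 1 and at 3.72, 4.58 and 4.10 CPM in KO day 1, with log2 fold changes of 0.79 ± 0.32 (adjusted p = 0.18) and 0.97 ± 0.33 (adjusted p = 0.343, edgeR). Its KO day 1 libraries did not overlap those of KO day 0, as was also so for Tfec and for 19.1% of all genes. Nfatc1, at 99.5 to 134 CPM in WT day 1 and 89.5 to 115 CPM in KO day 1, overlapped its day 0 range under both labels.

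Between days 1 and 3, 7 members were called in the WT-labelled libraries (Nfatc1, Rcan1, Prdm1 and Ppargc1b higher, Nfatc2, Tfeb and Tfe3 lower), with 32% of all genes called, and 8 in the KO-labelled libraries, with 28%. These comparisons share their day 3 libraries with those against day 0. Nfatc1 rose by 2.49 ± 0.20 (WT, adjusted p = 4.60e-06) and 2.06 ± 0.20 (KO, adjusted p = 4.69e-05, edgeR) on the log2 scale from day 1 to day 3. The eighth gene was Tfec under the KO label, which fell by 0.90 ± 0.24 (adjusted p = 0.0128, edgeR) from 37.8 to 40.0 CPM on day 1 to 16.9 to 24.8 CPM on day 3. Without KO day 1 library 2 or without KO day 3 library 3 Tfec no longer passed (adjusted p = 0.0507 and 0.0501), and without the 5 double-hyphen libraries, which leaves 1 library in KO day 1, 5 members and 4.04% of all genes were called. Under the WT label Tfec stood at -0.24 ± 0.24. The call of Tfeb from day 1 to day 3 held in 8 of 15 other settings under the WT label and in 8 of 14 under the KO label. It was lost without the double-hyphen WT day 1 library (-0.49, adjusted p = 0.259), without WT day 3 library 1 or 3 (adjusted p = 0.0758 and 0.112), and under the KO label without library 1 or 2 of day 1 (adjusted p = 0.061 and 0.0869) or of day 3 (adjusted p = 0.0551 and 0.0663).

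The NFAT pathway list held 22 other genes of calcium release, calcineurin and NFAT export, of which 21 were tested. On day 3 against day 0, 5 rose and 3 fell under the WT label (median log2 fold change -0.18, all genes -0.03), and 6 rose and 4 fell under the KO label (median 0.04, all genes -0.01). Of all genes tested 50.2% and 42.5% were called in these comparisons, and the counts of this list and of those that follow are to be read against that. Under the WT label Rcan2, a brain and muscle paralog of Rcan1, rose from 0.565 to 7.07 CPM (log2 fold change 3.60 ± 0.80, adjusted p = 0.00206, edgeR). Nfatc4 rose from 2.21 ± 3.30 to 21.3 ± 2.24 CPM (SD) under that label (3.24 ± 0.87, adjusted p = 0.00703, edgeR), with a day 0 SD above the day 0 mean. Stromal or osteoblast markers summed to 88.5 to 4522 CPM in WT day 0 and 10674 to 13820 CPM in WT day 3. Their part in the rises of listed genes was not tested. Camk4, a calcium-dependent kinase, was at 0.095 and 1.16 CPM (3.42 ± 0.97, adjusted p = 0.0094, edgeR), which are few counts per library. The value of Nfatc4 did not pass in a fit on only the WT libraries of days 0 and 3 (adjusted p = 0.0593). Homer2 was at 3 counts or fewer in every library and was not tested.

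Of 14 genes listed as NFATc1 and MITF targets, 10 rose under each label by day 3. Under the KO label 1 also fell, Tcirg1, a subunit of the proton pump of the resorbing membrane (log2 fold change -0.52, adjusted p = 0.0262, edgeR). The median of the list was 6.58 (WT) and 5 (KO) on the log2 scale, or 6.29 (WT) with Calcr and Oscar at the bounds given next. Calcr, the calcitonin receptor, had 0 counts in every day 0 library and reached 15.2 ± 1.79 CPM (WT) and 10.2 ± 3.57 CPM (KO), which is at least 65.6-fold and 46.3-fold higher against a floor of 3 counts per library. Oscar, an immunoglobulin-like receptor that costimulates osteoclasts, had at most 2 counts on day 0 and was at least 266-fold and 236-fold higher. Slc9b2, a sodium/proton exchanger of osteoclasts, rose by 9.84 ± 0.88 (WT, adjusted p = 4.44e-06) from 0.352 to 334 CPM (edgeR). Genes of the list that did not pass under either label were Atp6v0d2, Clcn7 and Ostm1. These negatives belong to the main fit. Over 14 other settings, 10 to 13 genes of the list were called under the WT label and 10 to 12 under the KO label. With title style in the fit 13 (WT) and 12 (KO) were called.

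The MiT/TFE target list of lysosomal and autophagy genes went mostly the other way. Of 12 genes, 8 fell and 1 rose on day 3 under each label, with a median of -1.20 (WT) and -1.06 (KO) on the log2 scale. Under the WT label the log2 fold change of Lamp1, a lysosomal membrane protein, was -1.98 ± 0.29 (adjusted p = 0.000108), that of Ctsd, the lysosomal protease cathepsin D, -1.78 ± 0.44 (adjusted p = 0.00412), and that of Flcn, folliculin, -1.44 ± 0.24 (adjusted p = 0.000311, edgeR). The gene that rose was Atp6v1h, a subunit of the vacuolar proton pump, at 62.4 CPM on day 0 and 167 CPM on day 3 under the WT label. In the libraries labelled KO the log2 fold change of Ctsd (-1.504) did not pass without KO day 0 library 2 or without KO day 3 library 1 or 2 (adjusted p = 0.0539 to 0.0606).

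Of 7 genes listed as repressed by Blimp1, 6 fell and 1 rose under the WT label, and 4 fell and 1 rose under the KO label (medians -2.56 and -2.05). Ciita, the activator of class II antigen presentation genes, fell by 4.01 ± 0.77 (WT, adjusted p = 0.000782), and Irf8, an inhibitor of osteoclast formation, went from 382 to 64.9 CPM (WT). The riser was Myc, from 7.96 to 44.8 CPM under the WT label and from 13.0 to 33.0 CPM under the KO label. Pax5 and Spib, B cell factors, were at 2.62 and 5.61 CPM on WT day 0 and at 0 and 0.787 CPM on WT day 3. Their calls were not firm: Pax5 lost its call without any 1 of the WT day 3 libraries (adjusted p = 0.0518 to 0.0543), and Spib without 5 of the 6 WT libraries left out in turn (adjusted p = 0.0555 to 0.0897). The number of genes of the list called was 4 without any 1 WT day 3 library and 3 without 5 of the 6 KO libraries left out in turn or with the replicate number as a block. B cell and plasma cell markers (7 of 7) were present in the same libraries, with a sum of 18.03 to 91.3 CPM in WT day 0 and 211 to 226 CPM in WT day 3. That sum does not tell which of its genes rose, and Pax5 and Spib are not among them. The part of these markers in the values of the list was not tested.

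Of 7 partners and targets of PGC-1 coactivators, 6 were tested, and Ppargc1a, the paralog of Ppargc1b, had at most 2 counts in any library. Under the WT label 3 rose, Cycs (cytochrome c, 1.96 ± 0.37, adjusted p = 0.000724), Pprc1 (1.16 ± 0.21, adjusted p = 0.000526) and the nuclear receptor gene Esrra (0.59 ± 0.14, adjusted p = 0.00347, edgeR). Under the KO label 2 rose, Pprc1 and Cycs, and Cycs lost its call without KO day 0 library 3 or KO day 3 library 2 (adjusted p = 0.0587 and 0.0634), which left 1 gene called. Nrf1, Gabpa and Tfam did not pass under either label.

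No member differed between the labels on day 0, day 1 or day 3 at an adjusted p under 0.05 in edgeR, nor in the DESeq2 Wald test. Few genes of the whole table did, with 0.119%, 0.112% and 0.14% called on the 3 days in edgeR. The DESeq2 Wald test called 0.449%, 0.534% and 1.65% of all genes on these days. An edgeR fit on only the groups compared called 1.17% on day 3. On day 0 the members' log2 differences (KO minus WT) ran from -0.51 (Ppargc1b) to 0.20 (Rcan1), and 1 had an unadjusted p under 0.05 (7.59% of all genes), Nfatc3 at -0.23 ± 0.08. The libraries of the labels did not overlap for Nfatc1 and Nfatc3 on day 0, nor for 10.1% of all genes. On day 1, 1 member did (7.9% of all genes), Rcan1 at -0.36 ± 0.15, with all 3 KO libraries below all 3 WT libraries (12.6% of all genes did not overlap).

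On day 3, 9 of the 10 members were lower under the KO label, where the median log2 difference of all genes was 0.02. The share of all genes lower under that label was not computed. Several members ordered the day 3 libraries much alike (below), so the 9 are not independent. Among the 10, 5 had an unadjusted p under 0.05 (edgeR), a level that 10.7% of all genes reached. These were Prdm1 (-0.70 ± 0.32, adjusted p = 0.45), Ppargc1b (-0.65 ± 0.30, adjusted p = 0.454), Nfatc1 (-0.59 ± 0.19, adjusted p = 0.31), Rcan1 (-0.43 ± 0.14, adjusted p = 0.32) and Mitf (-0.41 ± 0.17, adjusted p = 0.411, edgeR). Tfec was at -0.46 ± 0.24 and Tfeb at 0.05 ± 0.34. For Mitf, Rcan1 and Prdm1 all 3 KO libraries lay below all 3 WT libraries, as 29.2% of all genes tested did in one direction or the other. Leaving out each day 3 library in turn, or using any other setting tried, gave no call, with Nfatc1 between -0.77 and -0.40 (adjusted p = 0.127 to 0.854) and Ppargc1b between -0.88 and -0.47. The change from day 0 to day 3 differed between the labels for no member in edgeR, where 0 of the 14241 genes tested passed. At an unadjusted p under 0.05 there was 1 member, Rcan1, and 5.4% of all genes. The DESeq2 Wald test also called no member, and 0.0281% of all genes. The difference in this change was -0.36 ± 0.27 for Nfatc1, -0.48 ± 0.45 for Prdm1 and -0.42 ± 0.24 for Mitf on the log2 scale (edgeR).

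**Figure D4:**
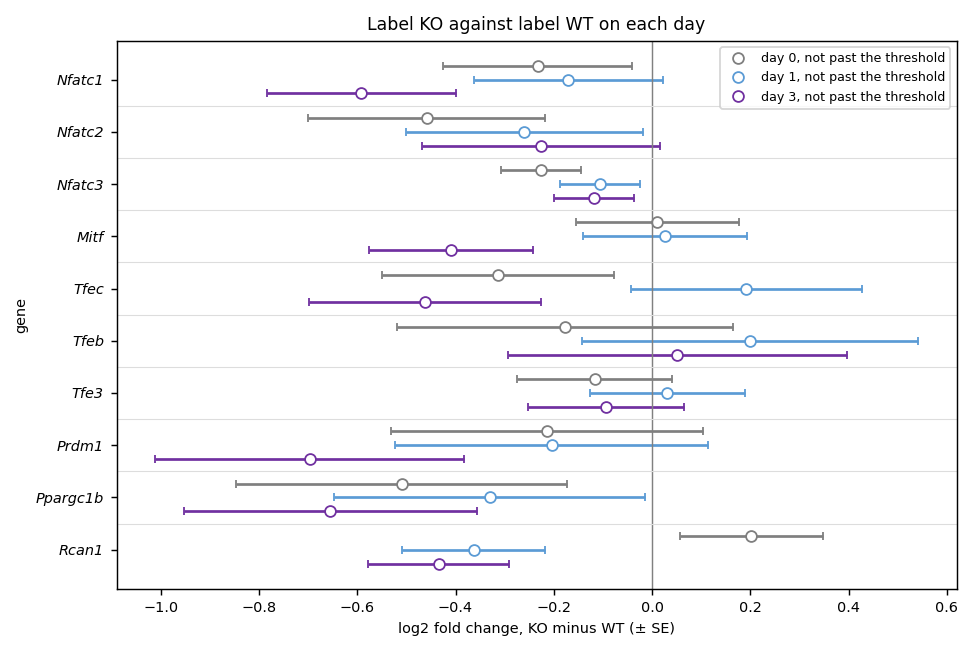
Log2 difference between the labels, KO minus WT (horizontal axis), for each gene on day 0 (grey), day 1 (blue) and day 3 (purple). Points are edgeR estimates and bars the SE, and no point has an adjusted p under 0.05. On day 3, 9 of 10 points lie left of 0, the farthest being Prdm1 at -0.70, with the median of all genes at 0.02.

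The day 3 libraries stood in much the same order for several members. Nfatc1 and Ppargc1b ordered them identically, with WT library 3 highest, then WT 1, KO 2, WT 2 and KO 1, and KO library 3 lowest. KO library 3 was also the lowest for Mitf, Tfec, Prdm1 and Rcan1, and for the sum of the osteoclast markers (4936 CPM, against 6790 and 9648 CPM in KO libraries 1 and 2 and 9159 to 11702 CPM in WT), whose 7 means were all lower in KO, 2 without overlap. The labels did not overlap on day 3 for 29.2% of all genes tested, and such counts of markers are to be read against that. Markers of other cells moved with the label on the same day. Stromal or osteoblast markers (10 of 10 present, none at 0) summed to 10674 to 13820 CPM in WT day 3 and to 19166 to 28689 CPM in KO day 3, with the mean of all 10 higher in KO and 7 not overlapping. Neutrophil markers (8 of 8) summed to 36.0 to 66.8 CPM in WT day 3 and 98.6 to 1146 CPM in KO day 3, the highest being KO library 3, with all 8 means higher in KO and 5 not overlapping. None of these marker genes was called between the labels. Their part in the lower levels of the members was not tested, and in bulk RNA fewer osteoclasts and less RNA of a gene per osteoclast cannot be told apart. The stromal or osteoblast sum also moved between the days, from 88.5 to 4522 CPM in WT day 0 and 1069.5 to 3637 CPM in KO day 0 to the day 3 values above. B and plasma cell markers summed to 211 to 226 CPM in WT day 3 and 208 to 279 CPM in KO day 3 (7 of 7 means higher, 3 not overlapping) and macrophage markers to 2900.2 to 4077 and 2908 to 3515 CPM. T and NK cell markers (8) summed to 0.647 to 0.826 CPM in WT day 3 and 1.41 to 3.68 CPM in KO day 3, with all 8 means higher in KO and 3 not overlapping. Mast cell and basophil markers (8, with Fcer1a and Tpsb2 at 0) summed to 1.91 to 3.42 and 3.61 to 12.5 CPM, with 6 means higher in KO.

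**Figure D5:**
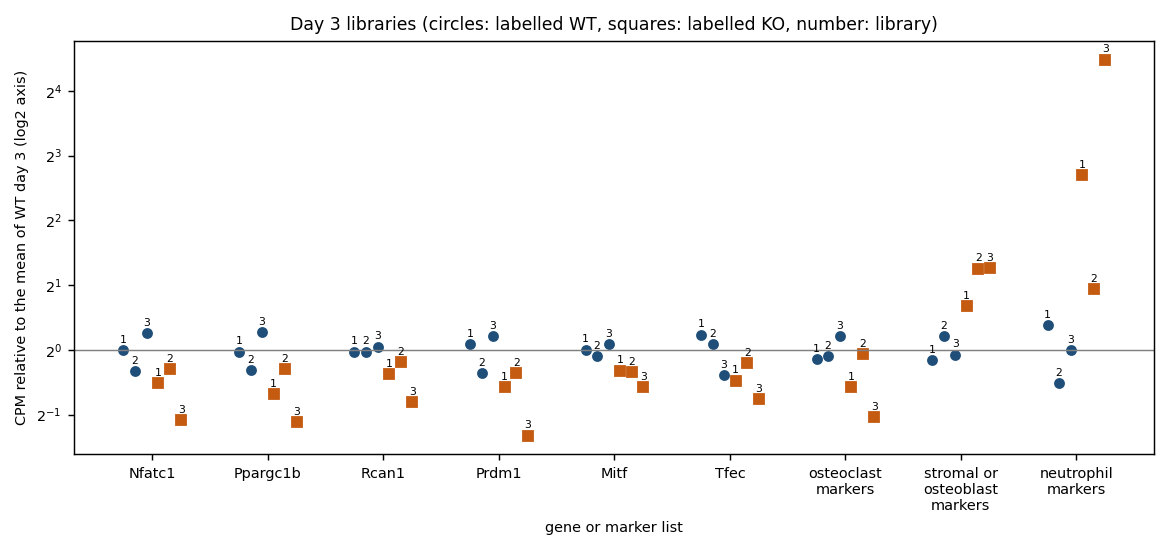
Level of 6 members and 3 marker lists in the 6 day 3 libraries, divided by the mean of WT day 3 (vertical axis, log2 scale). Circles are WT and squares KO libraries, with the library number above each. KO library 3 is lowest for all 6 genes and for the osteoclast markers, and highest for the neutrophil markers.

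Genes whose log2 CPM followed a member most closely over the 18 libraries were looked up by Pearson's r, as a description, since the libraries share their groups and the step from day 1 to day 3. For Nfatc1 they were Slc4a2, an anion exchanger that osteoclasts need for acid secretion (0.995), Ank (0.989) and Acoxl (0.986). For Ppargc1b they were Iars2, the mitochondrial isoleucyl-tRNA synthetase (0.977), Cs, the citrate synthase gene (0.974), and Edil3 (0.974). For Prdm1 they were Atp6v1d, a subunit of the vacuolar proton pump (0.965), Prkch (0.962) and Ptpn12 (0.962). Mitf, which moved little, had weaker neighbours, Gpd1 (0.908), Tmem192, a lysosomal membrane protein gene (0.875), and Arhgap10 (0.861).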

How the data were processed

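Libraries were made by the authors from total RNA of BMDMs with a SMARTER mRNA kit. The deposited table gave whole read counts and, from StringTie and Ballgown, FPKM values (which divide by transcript length) computed by the authors for 34745 genes. Aligner and counting program were not given in the sources used here. Builds GRCm38.p4 and mm10 are named in the submitters' processing notes, and 8 of 10 members had the same position in GENCODE vM21. Counts were analysed with edgeR 4.0.16 (R 4.3.3): filterByExpr (14241 genes), TMM scaling, and 1 quasi-likelihood fit of 18 libraries in 6 groups, with 2-sided Benjamini-Hochberg adjusted p-values over all genes (common dispersion 0.0945). CPM are counts scaled by the TMM library size, log2 CPM used a prior count of 2, and the floor was 3 counts per library (counting error only). DESeq2 1.42.0 and other settings were alternatives. Named were all members, Zmat1, from each list the 3 called genes with the largest change under the WT label, and the 3 genes most like 4 members. Further list genes in the text were picked with their values in view. Members and lists were chosen with earlier results of these data known. Same-numbered KO libraries deviated together between days 0 and 1 (r = 0.054 to 0.598), days 0 and 3 (0.13 to 0.398) and days 1 and 3 (0.156 to 0.34). The other groups did not in every pair, and the labels do not say what a number marks. WT day 1 had 2 libraries numbered 1 and none numbered 3. Depth ran from 13789775 to 17559958 counts. Some genes of the target and marker lists are not reported by name here.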

Additional observations from a re-analysis of the deposited data

How the results depend on the processing

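Of 149 counts of called members under other settings, 147 were within 1.5 times the value reported. The DESeq2 Wald test called 1 member (8.57% of all genes) on day 1 against day 0 under the WT label, and 5 (4.04% of all genes) were called between days 1 and 3 under the KO label without the 5 double-hyphen libraries, where KO day 1 keeps 1 library, assumed to vary like the other groups. Of 731 recomputed fold changes, for 50 pairs of a member and a comparison chosen for the text, 13 changed sign, none of them called before. The other pairs of member and comparison were not counted. Nfatc3 on day 3 against day 0 under the WT label was at 0.0205 with DESeq2 size factors, 0.0202 in the DESeq2 Wald test, 0.3382 with total counts, 0.0129 without the filter, 0.0090 with only the groups compared, 0.0043 without the double-hyphen libraries, and -0.0483 to 0.0308 on leaving out 1 library. Mitf there ran from -0.0189 to 0.1432, and on day 3 between the labels Tfeb ran from -0.0774 to 0.1855 and Tfe3 from -0.2472 to 0.0149, on leaving out 1 library. Tfec from day 1 to day 3 under the WT label was at 0.0427 with total counts. Among these pairs calls were gained in 8 cases and lost in 19, of which 13 were Tfeb from day 1 to day 3. Others were Tfe3 there under the KO label, lost without the double-hyphen libraries (-0.64, adjusted p = 0.0828), Tfec on day 3 against day 0 (-0.57 without WT day 0 replicate 3, -0.69 without KO day 0 replicate 1), Mitf under the KO label with only the groups compared (adjusted p = 0.0464), Nfatc3 under the KO label with total counts (0.37, adjusted p = 0.0188), and Tfec from day 1 to day 3 under the KO label, lost with total counts (-0.61, adjusted p = 0.0793). With the replicate block, 8 members in place of 7 were called on day 3 against day 0 under the KO label (42.3% of all genes) and 6 in place of 7 between days 1 and 3 under the WT label (22.5% of all genes), where Tfeb was lost (-0.77, adjusted p = 0.144). The block ended the call of Spib under the WT label (-2.64, adjusted p = 0.0593) and moved 5 counts of called list genes, NFAT pathway (KO) to 11, NFATc1 and MITF targets (WT) to 11, MiT/TFE targets (KO) to 10 and Blimp1 list to 5 (WT) and 3 (KO). Counts of called list genes moved by over 1.5 times in 12 of 140 cases, all in the Blimp1 and PGC-1 lists, and 18 of 417 fold changes of named list genes lost their call. The causes were not tested.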
